A study of Homo sapiens with 3 samples.

Results

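Epithelial-mesenchymal transition (EMT) is the programme by which epithelial cells give up their junctions and take on a mesenchymal state, and 10 genes that set or report this balance were read in anti-androgen-resistant prostate cancer cells. They are the EMT transcription factors SNAI1, SNAI2, TWIST1, ZEB1 and ZEB2, the mesenchymal products VIM and FN1, the epithelial transcription factors GRHL2 and OVOL1, and the epithelial splicing regulator ESRP1. All probe sets that the platform annotation assigns to these symbols were taken, which gave 26 of the 54675 probe sets on the array and 10 of 19775 genes. Each of the 26 was annotated to a single gene.

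One Affymetrix HG-U133 Plus 2.0 array was hybridized per cell line. C4-2B MDVR cells grow in medium with 20 µM enzalutamide, which blocks ligand binding by the androgen receptor. C4-2B AbiR cells grow in medium with 10 µM abiraterone acetate, which inhibits androgen synthesis. C4-2B parental cells, an established castration-resistant line descended from LNCaP, were passaged beside them with neither drug. The parental medium was RPMI with fetal bovine serum. Each line was read once, so every difference below is between 2 arrays and carries no replicate error and no p-value. Such a difference cannot be told apart from one between the arrays, the passages or the isolated populations themselves. Acquired resistance also cannot be told apart from the presence of the drug in the medium. Both sublines were set against the same parental array.

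The deposited values are log2 RMA values that had been centred for each probe set, so they show how 3 arrays differ and not how strongly a gene is expressed. For this reason a difference near 0 does not show whether a gene is expressed in these cells, and the presence of luminal markers could not be checked by level. Of 6 luminal markers measured, 1 was at least 2-fold lower in each subline, the androgen-driven protease gene KLK3 (−4.07 ± 3.23 on the log2 scale in MDVR and −3.17 ± 2.36 in AbiR, SD between 3 probe sets). The other 5 (KRT8, KRT18, HOXB13, FOLH1 and EPCAM) lay between −0.22 and 0.37 in MDVR and between −0.55 and 0.30 in AbiR. Of all genes, 1.67% in MDVR and 0.804% in AbiR were at least 2-fold lower. All 7 fibroblast markers on the list differed by less than 2-fold in both sublines. Only 3.33% of all genes in MDVR and 1.88% in AbiR reached 2-fold in either direction, so this count says little about fibroblast genes. As a measure of technical spread, 45 spiked bacterial control probe sets were used. Between MDVR and parental they differed by at most 0.35 in absolute value, between AbiR and parental by at most 0.20, and between MDVR and AbiR by at most 0.34. The SDs given with a gene are between its probe sets.

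As background, SNAI1 (Snail), SNAI2 (Slug), ZEB1 and ZEB2 are zinc finger repressors that bind E-boxes in the promoter of CDH1 (E-cadherin) and of other junction genes, and TWIST1 is a basic helix-loop-helix factor of the same programme. GRHL2 and OVOL1 act on the epithelial side and restrain ZEB1, while ESRP1 selects epithelial exons in transcripts such as FGFR2, CD44 and ENAH. ZEB1 and ZEB2 are held down in epithelial cells by microRNAs of the miR-200 family, which the ZEB factors repress in turn. The mature members are shown here because they define this loop. Their sequences are from RefSeq on GRCh38.p14, written 5′ to 3′, with the seed (bases 2 to 8) in capitals.
hsa-miR-200b-3p: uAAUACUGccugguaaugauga
hsa-miR-200c-3p: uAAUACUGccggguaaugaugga
hsa-miR-429: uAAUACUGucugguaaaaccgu
hsa-miR-200a-3p: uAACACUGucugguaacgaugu
hsa-miR-141-3p: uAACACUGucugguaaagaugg
The first 3 share the seed AAUACUG and the other 2 the seed AACACUG. The genes of miR-200b, miR-200a and miR-429 lie on chromosome 1, and those of miR-200c and miR-141 on chromosome 12. Mature microRNAs were not measured on this array.

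Expression of SNAI2 and FN1 separated the resistant lines from parental cells, in opposite directions. SNAI2 was 8.70-fold lower in MDVR and 8.39-fold lower in AbiR. FN1, which encodes the extracellular matrix protein fibronectin, was 2.65-fold higher in MDVR and 2.13-fold higher in AbiR by the mean of its probe sets. By the 2 probe sets not marked as matching several transcripts or other sequences, FN1 was under 2-fold in both (0.31 and 0.12 on the log2 scale). The other 8 genes differed by less than 2-fold in both lines. In MDVR, 1 of the 10 passed 2-fold upwards and 1 downwards, against 1.65% and 1.67% of all genes. In AbiR it was again 1 up and 1 down, against 1.07% and 0.804% of all genes. Both sets of counts rest on the same parental array. Between the sublines, MDVR minus AbiR, 0 of 10 genes reached 2-fold in either direction, against 0.875% of all genes higher and 1.13% lower. The median of the 10 genes was 0.099 in MDVR and 0.051 in AbiR, beside 0.044 and −0.011 over all genes.

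**Figure D1:**
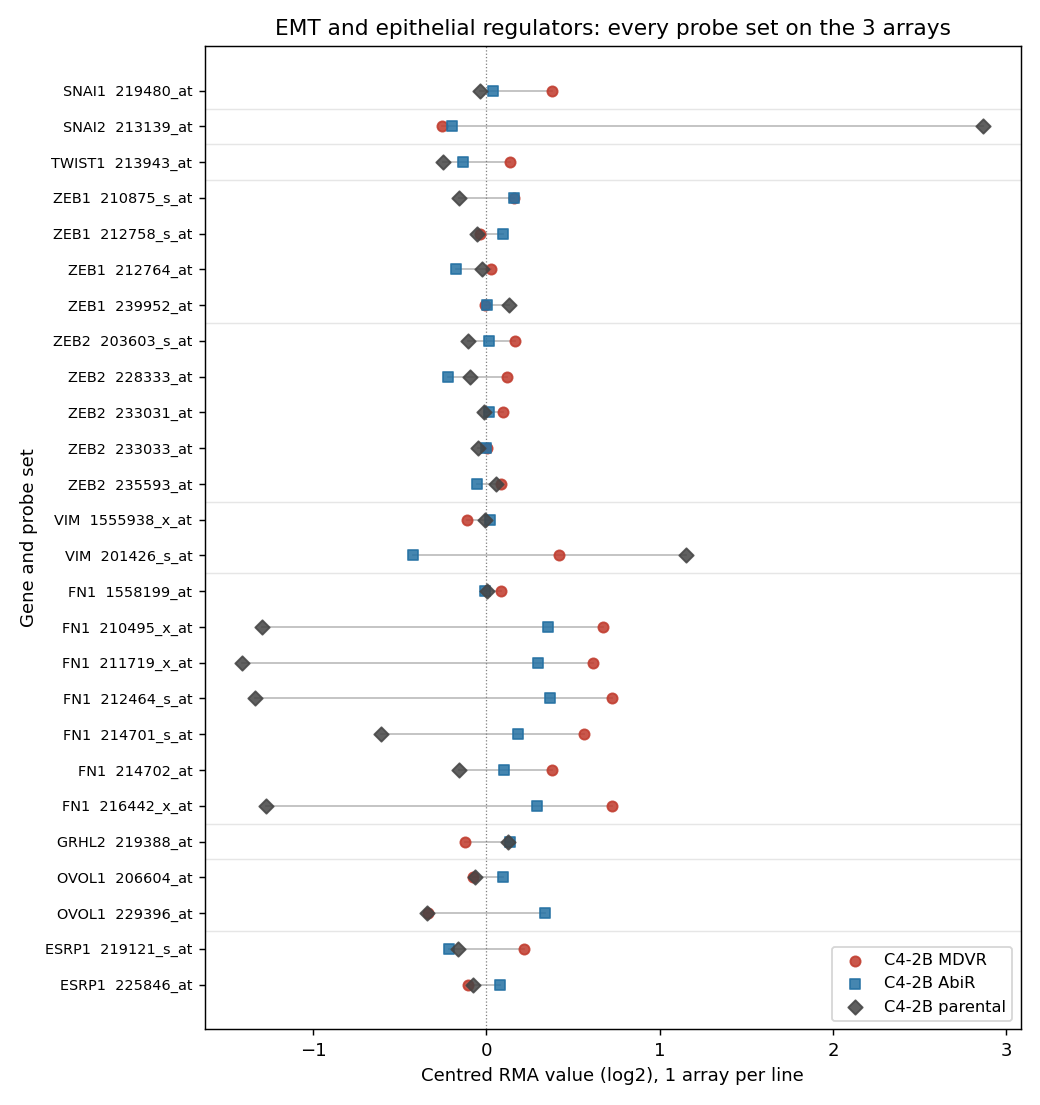
Centred RMA values (x axis, log2) of the 26 probe sets of the 10 genes (y axis) on the C4-2B MDVR, C4-2B AbiR and C4-2B parental arrays, with grey lines from the lowest to the highest of the 3. The parental point of SNAI2 stands alone at 2.87, and the parental points of 4 FN1 probe sets lie between −1.41 and −1.27.

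SNAI2 differed most among the 10 genes in both sublines. Its only probe set, 213139_at, had centred log2 values of −0.25 in MDVR, −0.20 in AbiR and 2.87 in parental cells. The parental array was high and both resistant arrays were low, close to each other. The log2 difference from parental was −3.12 in MDVR and −3.07 in AbiR, and MDVR minus AbiR was −0.053. Of 19775 genes, 37 had a larger absolute difference from parental in MDVR and 28 in AbiR. As a single probe set read this gene, no second probe set could check it. The difference was −3.15 in MDVR and −3.06 in AbiR with arrays centred on their medians, and −3.16 and −3.10 with arrays centred on the spiked controls. These centrings shift all genes of a comparison alike, so they do not check the SNAI2 probe set itself.

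The genes around SNAI2 on its chromosome did not follow it. Of 10 measured neighbours, 5 on each side in the order of the RefSeq table, 0 reached 2-fold in either subline. Over all genes the share was 3.33% in MDVR and 1.88% in AbiR. The neighbours ranged from −0.56 to 0.37 in MDVR and from −0.30 to 0.26 in AbiR. These neighbours were examined after the value of SNAI2 was seen. The kinase gene PRKDC, a component of DNA double-strand break repair, was at −0.18 in MDVR and 0.21 in AbiR, and the replication helicase gene MCM4 at −0.055 and −0.27. Across the 3 arrays, the gene whose pair of differences lay nearest to that of SNAI2 was ZBTB16, which encodes the zinc finger transcription factor PLZF (−3.17 in MDVR and −3.05 in AbiR, Euclidean distance 0.049). HECW2-AS1 (−2.95 and −3.09, distance 0.18) and the prostein gene SLC45A3 (−2.91 and −3.15, distance 0.23) came next. With 3 arrays such a likeness rests on 2 differences that share the parental array.

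The Snail paralogs gave smaller values. SNAI1 was read by 1 probe set, with centred values of 0.38 in MDVR, 0.036 in AbiR and −0.036 in parental cells. The MDVR array was the high one, and AbiR and parental lay close together. The difference from parental was 0.41 in MDVR, or 1.33-fold, which exceeded the largest difference of a spiked control, and 17.6% of all genes had a larger absolute difference. In AbiR it was 0.072, within the range of the controls. SNAI3, a family member chosen as a paralog, was at 0.11 in MDVR and 0.22 in AbiR.

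TWIST1 followed the order of SNAI1. Its single probe set had centred values of 0.13 in MDVR, −0.13 in AbiR and −0.25 in parental cells, highest in MDVR. The difference from parental was 0.38 in MDVR, or 1.30-fold, just beyond the largest spiked control, and 0.12 in AbiR, within it. In MDVR 20.0% of all genes had a larger absolute difference. TWIST2 had values of −0.015 ± 0.30 in MDVR and −0.024 ± 0.17 in AbiR over 2 probe sets (SD between probe sets).

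By their means, ZEB1 and ZEB2 lay within the range of the spiked controls. Over 4 probe sets ZEB1 averaged 0.062 ± 0.19 in MDVR minus parental and 0.048 ± 0.22 in AbiR minus parental. In MDVR 3 of these were higher and 1 lower than parental, and in AbiR 2 were higher and 2 lower. The highest was 210875_s_at, with centred values of 0.16 in MDVR, 0.16 in AbiR and −0.16 in parental cells. Its difference of 0.32 in each subline was within the controls for MDVR and beyond them for AbiR, and was not shared by the other ZEB1 probe sets, which ranged from −0.14 to 0.051 in MDVR and from −0.15 to 0.15 in AbiR. Without it the mean of ZEB1 was −0.024 in MDVR and −0.041 in AbiR.

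ZEB2 was at 0.14 ± 0.10 in MDVR and −0.0087 ± 0.11 in AbiR over 5 probe sets. All 5 were higher in MDVR than in parental cells, by 0.032 to 0.28, and all 5 were higher in MDVR than in AbiR. In AbiR 3 were higher and 2 lower than parental. Each of these differences was smaller than the largest spiked control in its comparison, so ZEB2 had a common direction in MDVR at a size that the controls also reached. The probe set 240284_x_at, annotated to MIR200CHG, the host transcript of the miR-200c and miR-141 genes, was likewise within the controls, with a difference of 0.062 in MDVR and 0.15 in AbiR.

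**Figure D2:**
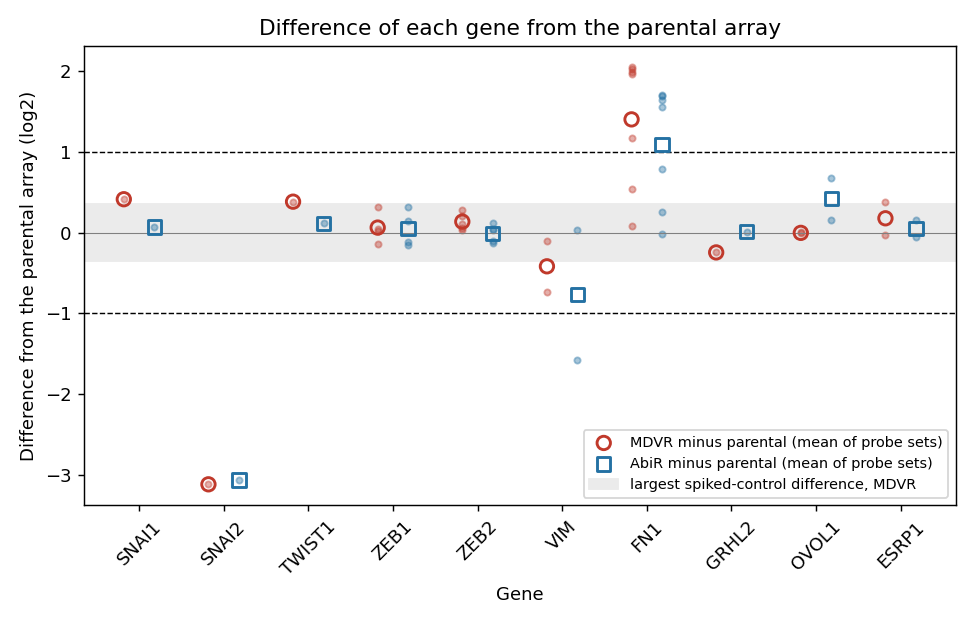
Log2 difference from the parental array (y axis) of the 10 genes (x axis) for C4-2B MDVR (circles) and C4-2B AbiR (squares), with single probe sets as small dots, dashed lines at 2-fold and the largest spiked-control difference for MDVR, 0.35, as a grey band. SNAI2 lies near −3.1 in both sublines, and FN1 is the only gene whose mean lies above the upper dashed line.

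The fibronectin gene FN1 was read by 7 probe sets, which gave a wide spread around means of 1.40 ± 0.82 in MDVR and 1.09 ± 0.74 in AbiR. Centred values of 212464_s_at were 0.72 in MDVR, 0.37 in AbiR and −1.33 in parental cells. Both resistant arrays were high, MDVR above AbiR, and the parental array was low. The 4 probe sets with the largest differences, 210495_x_at, 211719_x_at, 212464_s_at and 216442_x_at, lay close together, at 2.01 ± 0.038 in MDVR and 1.65 ± 0.066 in AbiR (SD, n = 4 probe sets), which is 3.91-fold to 4.16-fold higher in MDVR and 2.95-fold to 3.27-fold higher in AbiR. These 4 were grouped by their values, so their small SD follows in part from that choice. The other 3 gave smaller differences. A pair designed on the same sequence record differed, with 214701_s_at at 1.17 in MDVR and 0.79 in AbiR and 214702_at at 0.54 and 0.26. The last, 1558199_at, was at 0.081 in MDVR and −0.012 in AbiR.

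The size of the FN1 difference thus varied with the class of probe set. The probe sets also differ in the sequence they read, so class and sequence cannot be told apart here. Affymetrix gives the suffix _s to probe sets whose probes all match several transcripts, and _x to those with some probes that match other sequences. All 5 FN1 probe sets with these suffixes had the largest values (1.84 ± 0.38 in MDVR and 1.48 ± 0.39 in AbiR), and the 2 without one averaged 0.31 and 0.12. With suffixed probe sets left out, FN1 was no longer 2-fold higher in either subline. In AbiR it was also just under 2-fold (0.99) when either 211719_x_at or 212464_s_at was left out. All 7 probe sets were higher in MDVR than in AbiR, by 0.093 to 0.43 and on average by 0.31 ± 0.11, a mean below the largest spiked control of that comparison.

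**Figure D3:**
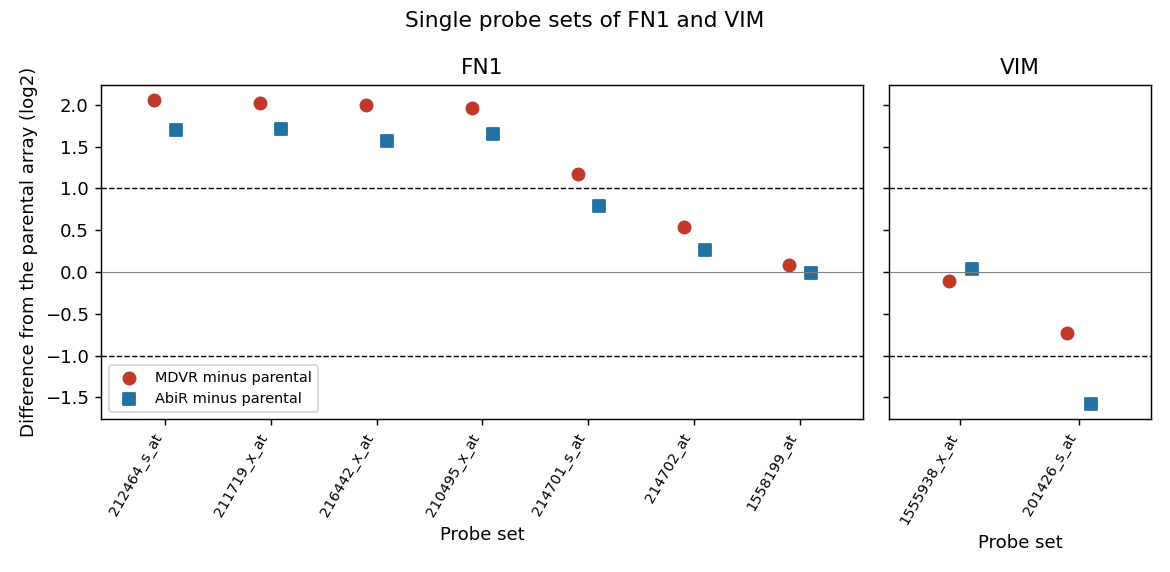
Log2 difference from the parental array (y axis) of each probe set (x axis) of FN1 (left) and VIM (right) for C4-2B MDVR (circles) and C4-2B AbiR (squares), with dashed lines at 2-fold. In FN1, 4 probe sets lie between 1.97 and 2.06 in MDVR, and 201426_s_at of VIM lies at −0.73 in MDVR and −1.58 in AbiR.

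The FN1 promoter is shown because FN1 is the only gene of the 10 that was at least 2-fold higher. The 200 bases before the RefSeq start lie at chr2:215436069-215436268 of GRCh38.p14, minus strand, and are written 5′ to 3′ in the sense of the gene, with matches to 3 promoter motifs in capitals.
FN1: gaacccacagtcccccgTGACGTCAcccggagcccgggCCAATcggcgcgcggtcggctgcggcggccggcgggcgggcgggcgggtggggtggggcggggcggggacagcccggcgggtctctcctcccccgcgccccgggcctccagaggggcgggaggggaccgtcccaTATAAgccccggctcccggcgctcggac
The palindrome TGACGTCA, the full cyclic AMP response element, begins 183 bases before the start, the CCAAT box 162 bases and TATAA 28 bases before it. Of 35116 promoter windows of 300 bases, from 250 before to 50 after a start, 1.85% hold TGACGTCA, 34.6% hold CCAAT or its reverse complement ATTGG and 20.4% hold TATAA or TTATA. The E-box of the Snail and ZEB factors, CACCTG or its reverse complement CAGGTG, is found in 20.6% of windows. Windows were at hand for 4 of the 10 genes, namely ZEB1, ZEB2, VIM and FN1. The letters of this E-box were not in the windows of FN1, VIM and ZEB2. ZEB1 has 7 annotated starts, of which 1 window holds 1 match and another 3. The motifs do not overlap each other in these windows. They were chosen after the FN1 values were seen, and a match is a description of the letters only.

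Vimentin, the intermediate filament protein of mesenchymal cells, is encoded by VIM, whose mean lay on the opposite side of parental from that of FN1. Its mean difference was −0.42 ± 0.45 in MDVR and −0.77 ± 1.14 in AbiR over 2 probe sets. Centred values of 201426_s_at were 0.42 in MDVR, −0.42 in AbiR and 1.15 in parental cells, lowest in AbiR. Its differences from parental were −0.73 in MDVR and −1.58 in AbiR, and MDVR minus AbiR was 0.84. The other probe set, 1555938_x_at, was at −0.10 in MDVR and 0.034 in AbiR, both within the spiked controls. VIM in AbiR was thus 1.71-fold lower by the mean, past 2-fold by 1 probe set and without difference beyond the controls by the other. Both carry a suffix, so no value remains without such probe sets. Of the 10 measured neighbours of VIM, 0 reached 2-fold in either subline, against 3.33% of all genes in MDVR and 1.88% in AbiR. The mean of VIM did not reach it either. The neighbours had a median of −0.30 in MDVR, with a range from −0.42 to 0.43, and of −0.13 in AbiR, from −0.30 to 0.14. The mean of VIM lay at the low end of this range in MDVR and below it in AbiR.

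The genes of the epithelial side showed small differences. GRHL2, a grainyhead-like activator of junction genes, was read by 1 probe set, with centred values of −0.12 in MDVR, 0.14 in AbiR and 0.12 in parental cells. The MDVR array was lowest, and the differences from parental of −0.25 in MDVR and 0.012 in AbiR were within the spiked controls. Its paralogs were close to 0 as well, with GRHL1 at −0.19 ± 0.22 in MDVR and −0.10 ± 0.14 in AbiR (2 probe sets) and GRHL3 at 0.051 and −0.012.

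OVOL1, a zinc finger repressor of mesenchymal genes, was highest in AbiR. Centred values of 229396_at were −0.34 in MDVR, 0.34 in AbiR and −0.34 in parental cells, and those of 206604_at were −0.076, 0.093 and −0.066 in the same order. Both probe sets placed AbiR above MDVR and parental, which lay together. The mean difference from parental was −0.0031 ± 0.0099 in MDVR and 0.42 ± 0.37 in AbiR, where 1 of the 2 probe sets exceeded the largest spiked control (0.68) and the other did not (0.16). MDVR minus AbiR was −0.42 ± 0.36. The paralog OVOL2 had values of 0.11 ± 0.36 in MDVR and 0.020 ± 0.32 in AbiR over 2 probe sets.

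The probe sets of the splicing regulator ESRP1 did not share a direction. Centred values of 219121_s_at were 0.22 in MDVR, −0.22 in AbiR and −0.17 in parental cells, with MDVR highest. Those of 225846_at were −0.11 in MDVR, 0.079 in AbiR and −0.079 in parental cells, with AbiR highest. The mean difference was 0.18 ± 0.29 in MDVR and 0.054 ± 0.15 in AbiR. Of the differences from parental, only that of 219121_s_at in MDVR (0.39) was beyond the largest spiked control.

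Of the 26 probe sets, 11 exceeded the largest spiked-control difference in MDVR and 10 in AbiR, against 25.04% and 37.8% of all probe sets. At the level of genes, 5 of 10 did so in MDVR (SNAI1, SNAI2, TWIST1, VIM and FN1) and 4 of 10 in AbiR (SNAI2, VIM, FN1 and OVOL1), against 23.0% and 33.02% of all genes. For MDVR minus AbiR it was 2 of 10, VIM (0.35) and OVOL1 (−0.42), against 19.4%. These shares take single-gene means, whereas the control limit is that of single probe sets.

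Genes linked to the epithelial or mesenchymal state were read as lists. These were chosen by hand, and their genes were not shown here to be targets of these regulators. The epithelial junction list also holds genes that are not junction components, such as PRSS8. Of its 29 measured genes, 4 were at least 2-fold higher and 0 lower in MDVR, against 1.65% and 1.67% of all genes. In AbiR 0 were higher and 1 lower, against 1.07% and 0.804%. The list median was 0.15 in MDVR and 0.16 in AbiR. CDH1, which SNAI2 represses in other epithelial cells, was at −0.39 ± 0.11 in MDVR and 0.12 ± 0.19 in AbiR (2 probe sets). The tight junction gene OCLN was higher by 1.19 ± 0.060 in MDVR and 0.90 ± 0.18 in AbiR over 4 probe sets. The P-cadherin gene CDH3 was at 1.10 and 0.92, and the membrane protease gene PRSS8 at 1.08 and 0.69, by 1 probe set each. TJP1, which encodes the scaffold ZO-1, was at −0.62 ± 0.12 in MDVR and −1.04 ± 0.37 in AbiR. Genes of this list thus differed in both directions.

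Of 35 measured mesenchymal genes other than VIM and FN1, 0 reached 2-fold in MDVR, against 3.33% of all genes in either direction. In AbiR 0 were higher and 1 was lower, against 1.88% in either direction, so that both counts lay near the share over all genes. The list median was 0.071 for MDVR and −0.035 for AbiR. The N-cadherin gene CDH2, whose gain beside a loss of CDH1 is the classic cadherin switch, was at 0.18 ± 0.17 in MDVR and −0.047 ± 0.053 in AbiR. The gene lower in AbiR was the matricellular protein gene THBS1 (−1.17 ± 1.78), whose 7 probe sets ranged from −4.65 to −0.026. In MDVR it was at −0.048 ± 0.61.

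A list of 15 further EMT transcription factors also holds the ID genes, which inhibit basic helix-loop-helix factors. Of the 15, 2 were at least 2-fold higher and 0 lower in MDVR (1.65% and 1.67% of all genes). In AbiR 1 was higher and 1 lower (1.07% and 0.804% of all genes). SOX9 was higher in both, by 2.79 ± 0.016 in MDVR and 2.57 ± 0.26 in AbiR over 2 probe sets, which is 6.90-fold and 5.92-fold. LEF1, a nuclear effector of Wnt signalling, was at 1.12 ± 0.83 in MDVR and 0.053 ± 0.057 in AbiR over 3 probe sets. SOX4 was at 0.30 ± 0.12 in MDVR and −1.09 ± 0.98 in AbiR over 6 probe sets, which ranged from −2.05 to 0.20 in AbiR. The list median was 0.25 in MDVR and 0.053 in AbiR.

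Of 12 other epithelial transcription factors, 0 were at least 2-fold higher and 1 lower in MDVR (1.65% and 1.67% of all genes), and 1 was higher and 0 lower in AbiR (1.07% and 0.804%). ELF5 was at −1.53 ± 0.84 in MDVR and 0.87 ± 0.23 in AbiR, with both probe sets lower in MDVR (−2.13 and −0.94) and both higher in AbiR (0.71 and 1.03). ELF3 was higher in both, at 0.98 ± 0.65 in MDVR and 1.07 ± 0.30 in AbiR over 3 probe sets. As a list these genes had a median of −0.12 in MDVR, beside 0.0041 in AbiR.

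The 12 other splicing regulators had medians of 0.0013 in MDVR and 0.052 in AbiR, and KHDRBS3 in AbiR was the only 2-fold difference, against 3.33% of all genes in MDVR and 1.88% in AbiR in either direction (1.24, with its 2 probe sets at 0.53 and 1.95, beside 0.43 ± 0.31 in MDVR). RBM47 was at −0.013 ± 0.32 in MDVR and 0.034 ± 0.16 in AbiR over 5 probe sets, and QKI at 0.015 ± 0.26 and 0.13 ± 0.13 over 10. Of 14 genes with ESRP-regulated exons, 0 reached 2-fold in either subline, a count that the same shares of all genes would also give in a list of this length. FGFR2 was at 0.14 ± 0.32 in MDVR and −0.079 ± 0.23 in AbiR over 11 probe sets, and CD44 at 0.13 ± 0.24 and −0.021 ± 0.17 over 13. The probe sets of this array mostly read the 3′ end of a transcript, so exon choice itself was not measured. RBM47, QKI, FGFR2 and CD44 were named after their values were seen.

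**Figure D4:**
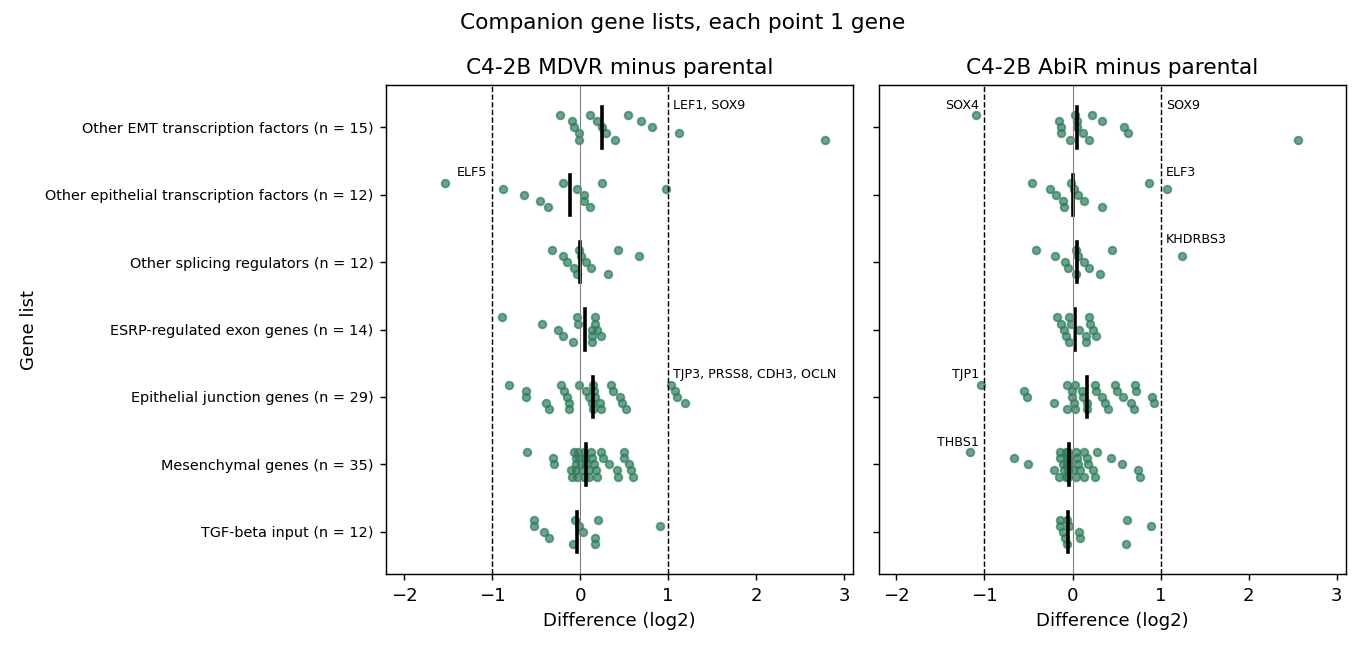
Each point is 1 gene of a companion list (y axis, with the number measured), plotted at its log2 difference against parental (x axis) in C4-2B MDVR (left) and C4-2B AbiR (right), with black bars at list medians and dashed lines at 2-fold. SOX9 lies at 2.79 and 2.57. No gene of the mesenchymal list, which leaves out FN1 and VIM, lies to the right of the right-hand dashed line in either panel.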

How the data were processed

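RNA of C4-2B MDVR, C4-2B AbiR and C4-2B parental cells was hybridized to 1 HG-U133 Plus 2.0 array each. The deposited values are log2 values that the authors made with RMA (version not given in the sources used here) and then centred probe set by probe set. In 100% of the 54675 probe sets the values were compatible with a centring on the median of 4 arrays (tolerance 2e-06). A centring on the median or mean of the analysed arrays alone would also pass this check, so it does not decide between them. The SNAI2 values do, at −0.25 in MDVR, −0.20 in AbiR and 2.87 in parental cells. Their median is −0.20 and they do not cancel, so neither centring on these 3 arrays alone was used there. In 53.4% of probe sets a pair of arrays had values of equal size and opposite sign. Something beyond the median or mean of these 3 arrays thus entered the centring, and 1 further array, not analysed here, may have. No intensity, detection call or level can be recovered.

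Gene symbols came from the platform annotation and were updated through gene IDs (RefSeq, GRCh38.p14). The 41097 probe sets with a single symbol gave 19775 genes, each the mean of its probe sets. Each subline was set against parental, and MDVR against AbiR by subtraction, and at least 2-fold was counted as a description. With 1 array per group no test was run. The counting was tested on simulated data with the noise of the spiked controls and the same change on every probe set of a gene. That checks the code and not whether 2-fold is a reliable limit on these arrays. Named by rule were all 10 genes, the paralogs SNAI3, TWIST2, GRHL1, GRHL3 and OVOL2 (ESRP2 was not analysed here), CDH1 and CDH2, list genes at 2-fold (at most 3 per list and direction) and the 3 genes nearest to a gene at 2-fold. PRKDC, MCM4, ABCA12, RBM47, QKI, FGFR2, CD44, SMAD3, SMAD7, MIR200CHG and the luminal markers were named outside this rule, with their values seen. Genes and lists were chosen with earlier results of these data known. Python 3.11.15, pandas 2.3.3, numpy 2.4.6 and matplotlib 3.10.9 were used.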

Additional observations from a re-analysis of the deposited data

How the results depend on the processing

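SNAI2 stayed at least 2-fold lower in both sublines, but no alternative run for it could have changed this. With a single probe set, without suffix and annotated to 1 gene, most alternatives return the same value by construction. The centrings shift all genes of a comparison alike, by at most 0.038. The count of genes at least 2-fold higher became 0 in MDVR and 0 in AbiR once probe sets whose names carry _s, _x or _a were left out, where FN1 was at 0.31 and 0.12. The count at least 2-fold lower in AbiR became 2, with VIM beside SNAI2, at a threshold of 1.5-fold. Without 1555938_x_at, VIM was at −1.58 in AbiR, and without 201426_s_at at 0.034. The mean of FN1 in AbiR was 0.99 without 211719_x_at or without 212464_s_at. All other counts were the same under the 6 alternatives. Leaving out 1 probe set turned the sign of 11 of 66 values and the median in place of the mean 2 of 30. Leaving out the suffixed probe sets turned 4 of 27, among them ESRP1 in MDVR (−0.030) and ZEB1 in MDVR (−0.043) and AbiR (−0.14). Centring arrays on their median or on spiked controls turned 1 of 30 each, with shifts of at most 0.038. Probe sets annotated to several genes changed no value. No paired analysis was possible because each group holds 1 array. The number of arrays limits precision, and signal over background could not be judged from centred values.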

Other observations

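TGF-beta signalling is a classic inducer of the Snail and ZEB factors, and its genes were read as a further list. Of 12 measured, 0 were at least 2-fold higher or lower in either subline, against 3.33% of all genes in MDVR and 1.88% in AbiR, with medians of −0.033 in MDVR and −0.050 in AbiR. SMAD3, the receptor-activated effector, was at 0.91 ± 0.43 in MDVR and 0.62 ± 0.53 in AbiR over 4 probe sets. SMAD7, an inhibitor of the pathway, was at 0.17 in MDVR and 0.89 in AbiR by 1 probe set. Both were named after their values were seen.

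The genes whose pair of differences lay nearest to that of FN1 were the interferon-induced gene IFI6 (1.34 in MDVR and 1.08 in AbiR, Euclidean distance 0.065), the chemokine gene CCL8 (1.33 and 1.02, distance 0.10) and the histone variant gene MACROH2A2 (1.52 and 1.11, distance 0.11), each read by 1 probe set. Of 10 measured neighbours of FN1, 0 reached 2-fold in MDVR, against 3.33% of all genes in either direction. In AbiR 1, the lipid transporter gene ABCA12 (−0.018 in MDVR and 1.04 in AbiR), was at least 2-fold higher, against 1.07% of all genes.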
